A study of Mus musculus with 9 samples.

Results

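The 10 genes described here belong to the bone morphogenetic protein (BMP) pathway and were followed across all samples of the study. They are the ligand genes *Bmp2*, *Bmp4* and *Bmp7*, the receptor genes *Bmpr1a* and *Bmpr2*, the signal transducer gene *Smad1*, the inhibitor gene *Smad6*, and the target genes *Id1*, *Id2* and *Id3*. The members were the rows whose gene symbol is one of these names, which gave 10 of the 46517 genes in the deposited tables. RNA sequencing covered 9 cultures of duodenal organoids from wild type C57BL/6J mice, 3 each transduced with Ad-GFP, Ad-hHIF2 or Ad-hHIF1. Ad-GFP is the control adenovirus and drives green fluorescent protein. Ad-hHIF2 and Ad-hHIF1 drive human HIF2 or HIF1 alleles in which proline-to-alanine substitutions block degradation through VHL. All cultures were grown at 5% oxygen and were dissociated to single cells before transduction at 50 particles per cell, with RNA taken about 72 hours later, so the groups represent short-term overexpression from a viral vector. According to the methods, all 3 groups also shared conditioned medium with Wnt3a, R-spondin 3 and noggin, together with Y27632, SB431542 and nicotinamide. Noggin is a secreted protein that binds BMPs and keeps them from their receptors, and SB431542 inhibits the type I receptor kinases of the TGF-β branch. Transcripts of the BMP pathway were therefore measured with an antagonist present in every sample, the controls included. The study describes the samples of a group as biological replicates, and the labels do not say whether they came from separate animals.

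BMP ligands are secreted dimers that bring together type I receptors, such as BMPR1A, and type II receptors, such as BMPR2. The active type I receptor phosphorylates SMAD1 and its relatives SMAD5 and SMAD9, which enter the nucleus with SMAD4 and switch on target genes, among them the Id genes and the inhibitory Smads. ID proteins bind E proteins such as TCF3, TCF4 and TCF12 and keep them from DNA. In the intestine, BMP activity is low at the crypt base and higher towards the villus, where it favours differentiation, and noggin is added to organoid medium to keep it low.

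Promoters were examined as a description of the members, and a match of letters is not a binding site. RefSeq promoter windows (GRCm38.p6) matched 7 of the 10 members. *Bmp2*, *Bmp7* and *Id1* had no entry. In the 250 bases before each start, both strands were searched for ACGTG and GCGTG, the core of HIF binding sites, and for GGCGCC, a palindrome bound by SMAD1 and SMAD5. The window of each of the 3 members that rose with HIF2 (*Id2*, *Bmpr1a* and *Bmpr2*) held GGCGCC, and these stretches are printed with the motif in capitals. That of *Id3*, which differed between the HIFs, is printed beside them with a HIF core in capitals. Where exons of the gene in the GENCODE annotation cover the window, 30 bases around the motif are shown, and otherwise the part of the window that holds the motif and lies outside exons.
Id2, chr12:25096254-25096342, minus strand: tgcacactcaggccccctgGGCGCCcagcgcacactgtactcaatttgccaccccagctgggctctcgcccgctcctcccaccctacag
Bmpr1a, chr14:34502688-34502796, minus strand: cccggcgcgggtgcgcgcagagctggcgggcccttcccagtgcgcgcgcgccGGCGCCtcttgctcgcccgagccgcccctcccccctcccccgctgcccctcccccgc
Bmpr2, chr1:59764162-59764191, plus strand: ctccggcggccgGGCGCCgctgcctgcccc
Id3, chr4:136143792-136143821, plus strand: ctataagagtcggccgctgcagGCGTGcgc

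GGCGCC lay 226 to 231 bases before the *Id2* start, 193 to 198 before the *Bmpr1a* start and 100 to 105 before the *Bmpr2* start. These are the RefSeq starts, which lie 1048, 795 and 879 bases downstream of the outermost GENCODE starts of the 3 genes given with the values (325 bases for *Id3* and 0 for *Smad6*). By GENCODE the printed stretches of *Id2* and *Bmpr1a* thus lie in introns and those of *Bmpr2* and *Id3* in exons. Of all 32851 promoter windows, 9.59% held GGCGCC. This motif is all G and C, and the windows of *Id2*, *Bmpr1a* and *Bmpr2* were 62.8, 78.8 and 64.0% G and C against a median of 52.4% for all windows. The 4 other members' windows, at 62.8 to 66.8%, did not hold it. A HIF core, ACGTG or GCGTG, was found in the windows of 4 of the 7 members, *Bmp4*, *Smad1*, *Smad6* and *Id3*, against 38.6% of all windows. None of the *Id2*, *Bmpr1a* and *Bmpr2* windows held either HIF core, which says only that these letters are absent from the 250 bases searched. *Smad6*, the inhibitory Smad that blocks the type I receptor, held ACGTG at 2 places and GCGTG at 1, more than any other member's window, and is printed with these motifs in capitals.
Smad6, chr9:64022060-64022309, minus strand: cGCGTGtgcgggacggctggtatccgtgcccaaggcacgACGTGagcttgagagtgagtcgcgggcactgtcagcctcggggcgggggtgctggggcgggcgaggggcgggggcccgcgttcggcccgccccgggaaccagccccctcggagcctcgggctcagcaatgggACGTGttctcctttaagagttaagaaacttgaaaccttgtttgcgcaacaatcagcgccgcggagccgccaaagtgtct

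The libraries held 21722618 to 51119041 expected counts. The labels were checked with the counts listed under mouse *Epas1*, the gene of HIF2, in which reads of the human transgene and of the mouse gene cannot be told apart. They stood at 604 to 758 CPM (counts scaled to library size) in the Ad-hHIF2 samples and at 1.47 to 3.07 CPM in the other 6. *Hif1a* stood at 299 to 319 CPM in the Ad-hHIF1 samples and at 198 to 251 CPM in Ad-GFP, a log2 fold change of 0.49 that did not pass (adjusted p = 0.486, edgeR's quasi-likelihood test). It passed with DESeq2 (adjusted p = 5.76e-05) and with edgeR without a count filter (adjusted p = 0.0025). In Ad-hHIF2 against Ad-hHIF1 the log2 difference of *Hif1a* was -0.45 (adjusted p = 0.0086, edgeR). Reads of the human transgene and of the mouse gene cannot be told apart in the *Hif1a* counts either. By these counts the rise of *Hif1a* in Ad-hHIF1 was far smaller than that of *Epas1* in Ad-hHIF2. The part of this unequal rise in the lack of calls with HIF1 and in the differences between the HIFs was not tested. Of the 6 epithelial markers, 4 (*Krt8*, *Krt18*, *Krt19* and *Cdh1*) were above 10 CPM in every sample, and all 6 summed to 3213 to 3730 CPM. The keratin genes, at 764 to 1358 CPM each, made up most of this sum. The other markers of the list were low, *Epcam* at 1.42 to 3.80 CPM and *Vil1* at 3.27 to 4.94 CPM. The 5 stem cell markers summed to 0.360 to 2.01 CPM. Of the 7 enterocyte and 6 secretory markers, 5 of each were under 1 CPM in every sample, and the others were *Krt20* (34.3 to 53.3 CPM), *Muc2* (1.49 to 7.50 CPM) and *Apoa4* (at most 2.81 CPM). The 10 stromal markers summed to 10.3 to 21.1 CPM, 6 of them under 1 CPM throughout. Of the libraries, 2 stood apart. Ad-hHIF1 replicate 3 had 15.96% of its counts in the satellite-like genes *Gm10800* and *Gm26870*, against 0.4333 to 4.279% in the others. In Ad-hHIF2 replicate 1 the 20 genes highest in TPM took a smaller share of counts (28.1%, against 30.5 to 43.8%), and the median ratio of its TPM (abundance scaled for transcript length) to its CPM was 0.109, against 0.0534 to 0.0630. CPM were therefore used for levels. Counts in the 1818 olfactory and vomeronasal receptor genes, which belong chiefly to sensory neurons, made up 0.00416 to 0.00708% of the Ad-hHIF2 libraries, 0.00804 to 0.0140% of the Ad-GFP libraries and 0.00623 to 0.0424% of the Ad-hHIF1 libraries.

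In Ad-hHIF2 against Ad-GFP, 3 members rose, *Id2* (3.72-fold), *Bmpr2* (1.58-fold) and *Bmpr1a* (1.24-fold), and *Id1* fell to 0.706 of the control level. Of the ligands, *Bmp2* and *Bmp4* did not pass and *Bmp7* was not tested. The targets did not move one way, since *Id2* rose, *Id1* fell, and *Id3* and *Smad6* did not pass. The call of *Id1* was kept in only 1 of the 6 fits that left out a sample. The members that passed were 4 of the 9 tested, and 29.5% of all 14987 genes tested passed at an adjusted p below 0.05. A single member, *Id2*, also changed at least 2-fold, against 6.73% of all genes. No member passed in Ad-hHIF1 against Ad-GFP with edgeR. The median log2 fold change of the 9 members tested was -0.11 with HIF2 and that of all genes -0.01, and the median sizes of change were 0.31 and 0.32. Between the HIFs the median sizes were 0.45 for the members and 0.31 for all genes. Both HIF comparisons share the same 3 Ad-GFP samples. The rise seen in the counts of the HIF gene itself was unequal between them, and its part in their results was not tested. The RNA is from whole cultures, so fewer cells of a type and less RNA per cell cannot be told apart.

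**Figure D1:**
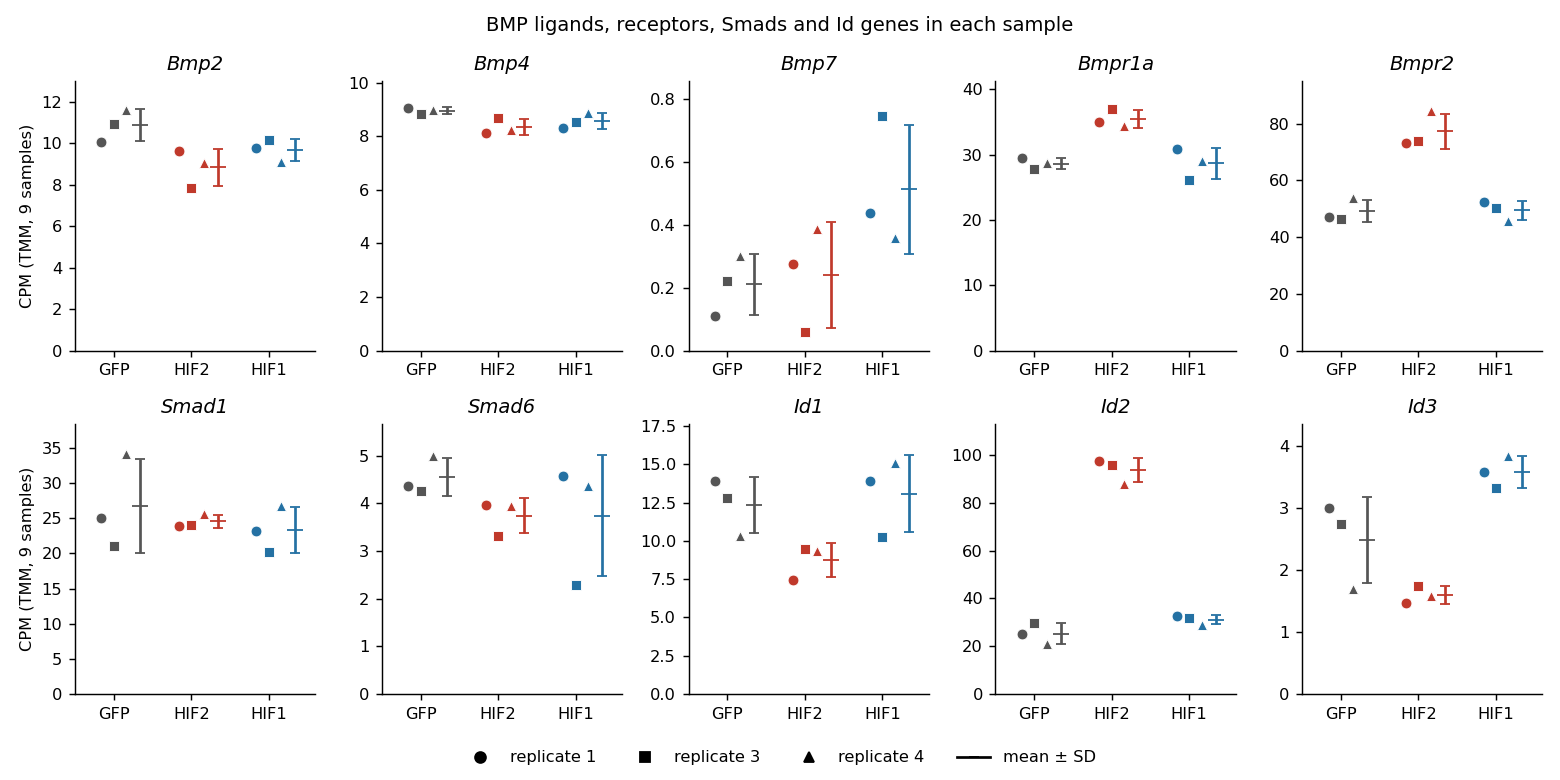
Expression of the 10 members in each of the 9 samples, in CPM with TMM scaling on the vertical axis, which starts at 0 in every panel, and the 3 groups on the horizontal axis. Points are samples and the bars beside them mean ± SD (n = 3). The 3 Ad-hHIF2 samples lie between 87.9 and 97.4 CPM for Id2, above all others, while the Bmp4 points of all groups lie between 8.12 and 9.07 CPM.

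*Bmp4*, a ligand known in the intestine mainly from the mesenchyme, was the steadiest ligand (chr14:46383520-46390669, minus strand, GENCODE M21 on GRCm38, as for all gene positions here). Its levels were 9.07, 8.81 and 9.0 CPM in Ad-GFP replicates 1, 3 and 4, 8.12, 8.67 and 8.25 CPM in the Ad-hHIF2 replicates and 8.29, 8.54 and 8.87 CPM in the Ad-hHIF1 replicates. The Ad-hHIF2 values all lay below the Ad-GFP values, by a small margin. With HIF2 the log2 fold change was -0.10 (95% interval -0.32 to 0.13, adjusted p = 0.493) and with HIF1 -0.06 (-0.32 to 0.19).

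*Bmp2* (chr2:133552159-133562885, plus strand), the close relative of *Bmp4* that epithelial cells of the intestine also make, stood at 10.1, 10.9 and 11.6 CPM in Ad-GFP, at 9.63, 7.87 and 9.06 CPM in Ad-hHIF2 and at 9.77, 10.2 and 9.10 CPM in Ad-hHIF1. Every Ad-hHIF2 sample was below every Ad-GFP sample, and the Ad-hHIF1 samples overlapped both. The log2 fold change of -0.29 with HIF2 (SE 0.113) did not pass (adjusted p = 0.0879), nor did that of -0.17 with HIF1 (adjusted p = 0.695).

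*Bmp7* (chr2:172868012-172940321, minus strand), a ligand of the BMP5 to BMP8 branch, was near the limit of detection. It had 4, 8 and 6 expected counts in Ad-GFP, 12, 3 and 12 in Ad-hHIF2 and 15.01, 17.02 and 14 in Ad-hHIF1. Scaled to library size, the Ad-hHIF1 samples (0.358 to 0.744 CPM) lay above the Ad-GFP samples (0.109 to 0.300 CPM). The gene was removed by the count filter in Ad-hHIF2 against Ad-GFP. In Ad-hHIF1 against Ad-GFP it passed the filter through its Ad-hHIF1 counts, so whether it was tested depended on the group where it was high. The log2 fold change of 1.29 there had a 95% interval of -0.21 to 2.80 (adjusted p = 0.617), so at this depth a difference was not resolved.

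*Bmpr2*, the type II receptor dedicated to BMPs (chr1:59763400-59879014, plus strand), stood at 47.3, 46.5 and 53.7 CPM in Ad-GFP, at 73.3, 74.0 and 84.4 CPM in Ad-hHIF2 and at 52.4, 50.1 and 45.8 CPM in Ad-hHIF1. The 3 Ad-hHIF2 samples were the highest of the 9, and the other groups overlapped each other. It rose with HIF2 by a log2 fold change of 0.66 (SE 0.0918, adjusted p = 0.0011). With HIF1 the log2 fold change was 0.01 (95% interval -0.19 to 0.21). The difference between the HIFs was tested in a fit of all 9 samples and was 0.64 (SE 0.0884, adjusted p = 0.000509).

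*Bmpr1a*, the type I receptor for BMP2 and BMP4 (chr14:34410734-34503341, minus strand), followed *Bmpr2* at a smaller size. Levels were 29.5, 27.7 and 28.6 CPM in Ad-GFP, 35.0, 37.0 and 34.3 CPM in Ad-hHIF2 and 30.8, 26.1 and 29.1 CPM in Ad-hHIF1. All Ad-hHIF2 samples lay above the 6 others. It rose with HIF2 by a log2 fold change of 0.31 (SE 0.0682, adjusted p = 0.00969). That with HIF1 was 0.00299 (95% interval -0.19 to 0.20), and between the HIFs the log2 difference was 0.30 (SE 0.0749, adjusted p = 0.0139). Its calls were lost in more settings than those of *Bmpr2*, and on the TPM scales neither receptor passed. Over all 18 alternatives, those that lost the call included, the log2 fold change against Ad-GFP ran from 0.24 to 0.66. That of *Bmpr2* ran from 0.45 to 0.91. Without Ad-hHIF2 replicate 3 the adjusted p was 0.0511 against Ad-GFP and 0.0777 against Ad-hHIF1, and without Ad-hHIF1 replicate 3 the second was 0.0531. With the share of counts in olfactory and vomeronasal receptor genes as a covariate, the log2 fold change was 0.24 (adjusted p = 0.0676) against Ad-GFP and 0.21 (adjusted p = 0.195) against Ad-hHIF1.

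*Smad1*, which carries the receptor signal to the nucleus (chr8:79338395-79399518, minus strand), varied among the controls. It stood at 25.0, 21.1 and 34.2 CPM in Ad-GFP, at 24.0, 24.0 and 25.6 CPM in Ad-hHIF2 and at 23.2, 20.1 and 26.7 CPM in Ad-hHIF1. Ad-GFP replicate 4 was the highest of the 9, and all groups overlapped. The log2 fold changes were -0.11 with HIF2 (95% interval -0.47 to 0.24) and -0.19 with HIF1 (-0.61 to 0.23). The sign of the first turned to 0.10 without Ad-GFP replicate 4, and neither passed.

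*Smad6* (chr9:63953076-64022059, minus strand), itself a BMP target, stood at 4.37, 4.27 and 5.0 CPM in Ad-GFP, at 3.96, 3.32 and 3.95 CPM in Ad-hHIF2 and at 4.57, 2.28 and 4.37 CPM in Ad-hHIF1. The Ad-hHIF2 samples were below the Ad-GFP samples, and the lowest of all was Ad-hHIF1 replicate 3, the library with the high satellite share. The log2 fold change of -0.28 with HIF2 did not pass (95% interval -0.65 to 0.10, adjusted p = 0.243), and that of -0.27 with HIF1 had an interval of -0.90 to 0.37. Without that library the log2 fold change with HIF1 was -0.017.

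The Id genes did not move together with HIF2. *Id2* (chr12:25093799-25097140, minus strand) stood at 25.1, 29.7 and 20.9 CPM in Ad-GFP, at 97.4, 95.6 and 87.9 CPM in Ad-hHIF2 and at 32.6, 31.7 and 28.9 CPM in Ad-hHIF1. The Ad-hHIF2 samples stood far above the rest, with the lowest at 87.9 CPM and the highest of the other 6 at 32.6 CPM. Its log2 fold change was 1.89 against Ad-GFP (SE 0.119, adjusted p = 1.4e-05) and 1.59 against Ad-hHIF1 (SE 0.115, adjusted p = 6.76e-06). With HIF1 it was 0.30 (95% interval 0.0078 to 0.59), and an unadjusted p of 0.0454 became 0.581 after adjustment, with 1 Ad-hHIF1 sample inside the Ad-GFP range. *Id2* passed in all 18 alternative settings in each HIF2 comparison.

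*Id1*, the most widely used readout of BMP activity (chr2:152736251-152737410, plus strand), stood at 13.9, 12.8 and 10.3 CPM in Ad-GFP, at 7.48, 9.46 and 9.31 CPM in Ad-hHIF2 and at 13.9, 10.2 and 15.1 CPM in Ad-hHIF1. The Ad-hHIF2 samples were the lowest of the 9. It fell with HIF2 by 0.50 on the log2 scale (SE 0.144, adjusted p = 0.0298) and stood lower than with HIF1, with a log2 difference of -0.59 (SE 0.165, adjusted p = 0.0257). With HIF1 against Ad-GFP the log2 fold change was 0.08 (95% interval -0.32 to 0.48). The HIF2 call depended on the scaling and on single samples. With total counts only the log2 fold change was -0.26 (adjusted p = 0.343) against Ad-GFP and -0.43 (adjusted p = 0.125) against Ad-hHIF1, and on log2(TPM + 1) it was -0.011 (adjusted p = 0.990) and -0.18 (adjusted p = 0.630). With total counts the median of all genes also moved up, to 0.24 against Ad-GFP and 0.17 against Ad-hHIF1. On log2(TPM + 1) that median was 0.12 and 0.06, so the *Id1* values in these settings are relative to a shifted centre. The call against Ad-GFP passed in 1 of the 6 fits that left a sample out, the fit without Ad-GFP replicate 4, and the adjusted p was 0.0965 without Ad-GFP replicate 1, 0.0839 without Ad-GFP replicate 3, 0.112 without Ad-hHIF2 replicate 1, 0.0511 without replicate 3 and 0.0619 without replicate 4. Against Ad-hHIF1 it was lost without Ad-hHIF2 replicate 1 (adjusted p = 0.113) or 4 (0.0587) and without Ad-hHIF1 replicate 1 (0.0718) or 4 (0.0948), and when the replicate number was entered as a blocking factor (0.0549).

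*Id3* (chr4:136143497-136145755, plus strand) had 34 to 150 expected counts per sample. It stood at 3.01, 2.74 and 1.70 CPM in Ad-GFP, at 1.46, 1.75 and 1.58 CPM in Ad-hHIF2 and at 3.58, 3.33 and 3.84 CPM in Ad-hHIF1. The HIF groups lay on either side of the controls, of which replicate 4 fell within the Ad-hHIF2 range. Against Ad-GFP the log2 fold change of -0.64 with HIF2 did not pass (SE 0.274, adjusted p = 0.111), and it passed without Ad-GFP replicate 4 (-0.83, adjusted p = 0.0283). The log2 fold change with HIF1 was 0.52 (95% interval -0.09 to 1.12, adjusted p = 0.617), although all 3 Ad-hHIF1 samples were above all controls. Between the HIFs, *Id3* was lower with HIF2 by a log2 difference of -1.16 (SE 0.246, adjusted p = 0.00648). Without Ad-hHIF1 replicate 3 this difference was -1.23 (adjusted p = 0.0086), and the call was lost on log2(TPM + 1) (-0.26, adjusted p = 0.203) and log2(TPM + 0.1) (-0.70, adjusted p = 0.175).

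**Figure D2:**
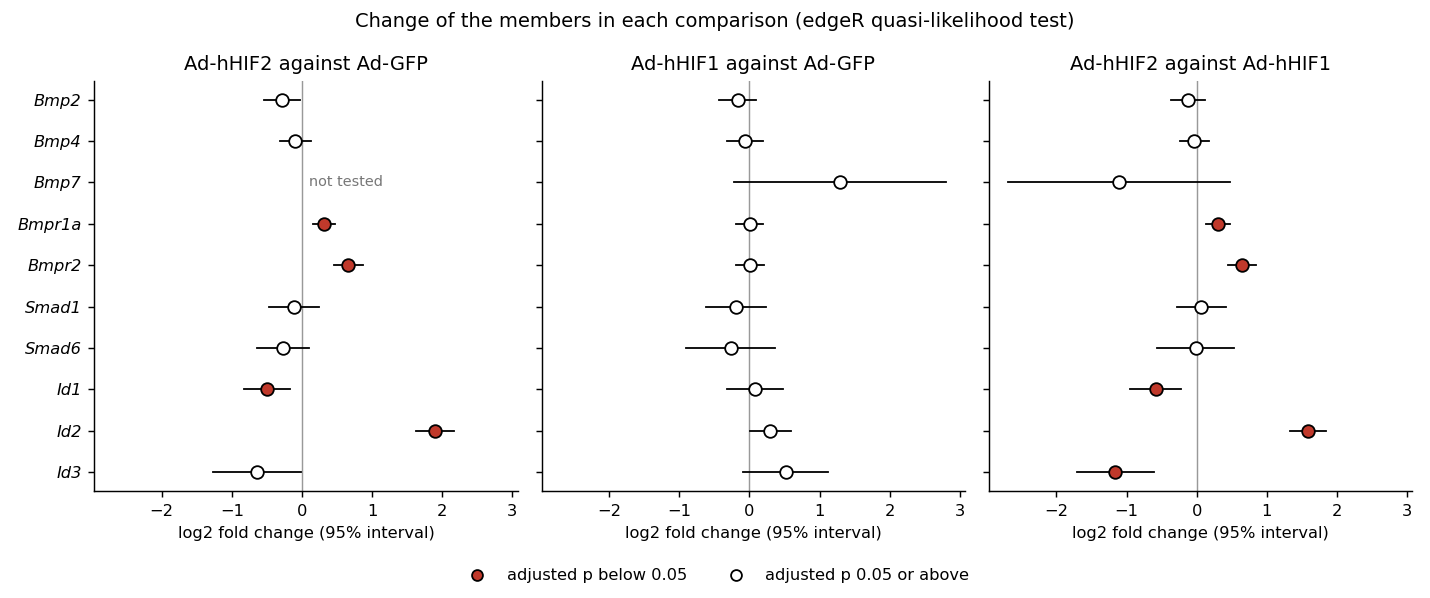
Log2 fold change of each member with its 95% interval on the horizontal axis, in Ad-hHIF2 against Ad-GFP, Ad-hHIF1 against Ad-GFP and Ad-hHIF2 against Ad-hHIF1, from edgeR's quasi-likelihood test. Filled points have an adjusted p below 0.05 and Bmp7 was not tested in the first panel. Id2 stands at 1.89 and 1.59 in the HIF2 panels and no point is filled in the middle panel.

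Counted over the members, Ad-hHIF2 and Ad-GFP did not overlap for 7 of the 9 members tested (3 above and 4 below), against 45.8% of all genes (23.4% above and 22.4% below). Between Ad-hHIF2 and Ad-hHIF1, 5 of 10 members passed (*Id2*, *Bmpr2* and *Bmpr1a* higher, *Id1* and *Id3* lower) against 25.8% of 15556 genes, and *Id2* and *Id3* also differed at least 2-fold against 6.11%. Without Ad-hHIF1 replicate 3, the library with the high satellite share, *Id2*, *Bmpr2*, *Id1* and *Id3* passed between the HIFs and *Bmpr1a* did not. In Ad-hHIF1 against Ad-GFP, edgeR called 0 of 15233 genes (0%), and 8.59% of genes had an unadjusted p below 0.05, of the members *Id2* alone. DESeq2 called 144 genes in that comparison and limma-voom 5. None was a member, but DESeq2 gave an adjusted p to only 4 of the 10 members (*Bmpr1a*, *Bmpr2*, *Smad1* and *Id2*). For 2 members, *Bmp7* and *Id3*, every Ad-hHIF1 sample lay above every Ad-GFP sample, as for 8.38% of all genes. *Bmp7* passed the count filter there through its higher Ad-hHIF1 counts, so its place in this count says nothing about direction.

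Levels were compared between genes as CPM per kilobase of effective transcript length. In Ad-GFP, *Id2* was the most abundant member (22.3 ± 3.89 CPM per kilobase, SD, n = 3), followed by *Id1* (14.9 ± 2.12) and *Smad1* (9.27 ± 2.42). *Bmp4* (5.88 ± 0.141) and *Bmpr1a* (5.28 ± 0.525) came next with overlapping ranges, then *Bmpr2* (4.19 ± 0.368). *Bmp2* (3.18 ± 0.224) and *Id3* (3.18 ± 0.584) could not be ordered, and *Smad6* (1.60 ± 0.138) and *Bmp7* (0.0595 ± 0.0271) were lowest. With HIF2 the level of *Id2* was 82.7 ± 4.51 CPM per kilobase and that of *Id1* 10.7 ± 1.37, while *Bmpr2* (6.27 ± 0.418) now overlapped *Bmpr1a* (6.39 ± 0.502), and both were above *Bmp4* (5.47 ± 0.495). With HIF1 the order of the first 3 members was that of the controls, and *Id3* (4.26 ± 0.329) overlapped *Bmpr2* (3.99 ± 0.347).

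**Figure D3:**
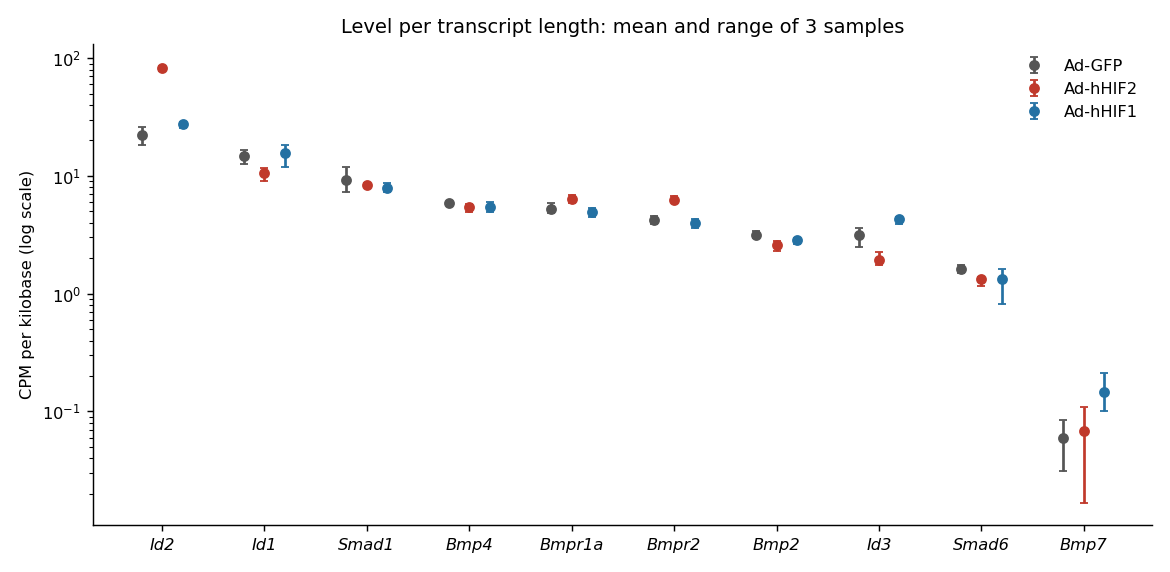
Level of each member in CPM per kilobase of effective length on a log axis, as the mean (point) and the range (bar) of the 3 samples of a group, with members ordered by their level in Ad-GFP. Id2 is at 22.3 in Ad-GFP and 82.7 in Ad-hHIF2, and Bmp7 is under 0.22 in every sample.

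By centred log2 CPM over the 9 samples, *Rnf128*, *Ptges* and *Gcnt1* had the patterns most like that of *Id2* among 15555 other genes, with root mean square differences of 0.0871, 0.0967 and 0.110 on the log2 scale. *Ptges*, the microsomal prostaglandin E synthase, had mean levels of 46.7 CPM in Ad-GFP, 186 CPM in Ad-hHIF2 and 60.5 CPM in Ad-hHIF1. *Rnf128*, an E3 ubiquitin ligase, had 76.8, 294 and 101 CPM in the same order, and *Gcnt1*, an enzyme of mucin-type O-glycan branching, had 54.8, 186 and 63.9 CPM.

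The rest of the pathway was read from a list of 57 further genes in the tables. Of these, 39 were tested in Ad-hHIF2 against Ad-GFP, 10 rose and 7 fell, 3 and 4 of them at least 2-fold. Both counts of falls hold *Atoh8*, which passed the count filter through its Ad-GFP counts, so its place there says nothing about direction. In all genes, 15.9% rose and 13.6% fell, 2.9% and 3.83% at least 2-fold. The falls were the less stable of these calls when a sample was left out. In those fits 7 to 11 pathway genes rose and 2 to 5 fell, with 2 falls without Ad-hHIF2 replicate 1 or 3. With DESeq2, 8 rose and 8 fell. With total counts only, 12 rose and 3 fell, but the median log2 fold change of all genes moved to 0.24 there, which by itself adds rises and removes falls. On log2(TPM + 1) only *Chrd*, *Crim1*, *Fstl1*, *Nbl1* and *Smad7* passed, and on log2(TPM + 0.1) the same genes but *Fstl1*. None of the 38 genes tested in Ad-hHIF1 against Ad-GFP passed with edgeR, which called 0% of all genes, and DESeq2 called *Fstl3*.

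Only 2 of 10 other BMP ligand genes were expressed enough to be tested, and both fell with HIF2. In all genes tested, 13.6% fell and 15.9% rose. *Bmp6*, a ligand best known for iron regulation, stood at 1.09, 2.30 and 2.25 CPM in Ad-GFP, at 0.663, 0.628 and 0.809 CPM in Ad-hHIF2 and at 1.60, 0.963 and 1.71 CPM in Ad-hHIF1. Its log2 fold change with HIF2 was -1.42 (SE 0.378, adjusted p = 0.0227). *Bmp8b* fell by 0.95 on the log2 scale (SE 0.259, adjusted p = 0.0253). Of 9 further receptor and co-receptor genes tested, *Acvr2b*, an activin type II receptor that also binds BMPs, was the single one to pass, from 3.48 ± 0.473 CPM to 1.95 ± 0.387 CPM (SD, n = 3, log2 fold change -0.83, adjusted p = 0.027). *Rgma*, a BMP co-receptor, was next at -1.24 (adjusted p = 0.0784). These are low counts, and each of the 3 falls was lost in at least 3 of the 6 fits that left out a sample: *Bmp6* passed in 3, *Acvr2b* in 3 and *Bmp8b* in 1.

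Among other Smads, *Smad7*, the inhibitory Smad shared with TGF-β signalling, stood at 36.6, 36.7 and 40.5 CPM in Ad-GFP, at 88.3, 84.1 and 92.0 CPM in Ad-hHIF2 and at 35.1, 28.2 and 36.1 CPM in Ad-hHIF1. It rose with HIF2 by a log2 fold change of 1.22 (SE 0.0771, adjusted p = 1.42e-05) and was 1.41 above Ad-hHIF1. *Smad6*, the inhibitory Smad among the members, did not pass and had a negative fold change. *Smad5*, a partner of *Smad1*, had a log2 fold change of 0.25 (adjusted p = 0.0764).

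Of 9 secreted antagonists and binding proteins tested, 3 rose and 2 fell with HIF2, where 15.9% of all genes rose and 13.6% fell. *Crim1*, a membrane-anchored protein that binds BMPs through cysteine-rich repeats, stood at 112, 111 and 116 CPM in Ad-GFP, at 266, 259 and 251 CPM in Ad-hHIF2 and at 109, 95.8 and 105 CPM in Ad-hHIF1. It rose 2.30-fold with HIF2 (SE 0.0715 on the log2 scale, adjusted p = 1.05e-05). *Chrd*, which encodes chordin, rose from 1.44 ± 0.0738 CPM to 3.14 ± 0.426 CPM (SD, n = 3, log2 fold change 1.13, adjusted p = 0.00657). *Nbl1*, a DAN family antagonist named here after its values were seen, rose by a log2 fold change of 0.76 (adjusted p = 0.000622).

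*Fstl3*, a follistatin-like protein that binds mainly activins and myostatin, fell with HIF2. It stood at 32.2, 28.8 and 31.1 CPM in Ad-GFP, at 14.1, 12.7 and 14.1 CPM in Ad-hHIF2 and at 38.7, 43.0 and 37.7 CPM in Ad-hHIF1. The log2 fold change with HIF2 was -1.16 (SE 0.0821, adjusted p = 2.84e-05). With HIF1 it was 0.37, not passing with edgeR (adjusted p = 0.486), although every Ad-hHIF1 sample lay above every control, and it was the 1 pathway gene that DESeq2 called in that comparison (adjusted p = 0.0273). Between the HIFs the log2 difference was -1.54 (adjusted p = 7.8e-07). *Fstl1*, a related secreted glycoprotein that is mostly mesenchymal, fell by 1.12 on the log2 scale (adjusted p = 0.0398), a call lost in 5 of 6 fits that left out a sample. Its Ad-hHIF2 levels were at most 1.19 CPM and its Ad-GFP levels 1.66 to 3.75 CPM. The 10 stromal markers summed to 10.3 to 13.3 CPM in Ad-hHIF2 and 13.0 to 19.2 CPM in Ad-GFP, and none of the 6 tested passed. Their part in the result was not tested. *Nog*, the gene of noggin itself, had at most 3 counts in any sample.

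Of the 10 intracellular regulators, 6 rose with HIF2 and 0 fell, where 15.9% of all genes rose and 13.6% fell. *Smurf1*, a ubiquitin ligase that targets BMP Smads and receptors, rose from 102 ± 6.69 CPM to 152 ± 2.48 CPM (SD, n = 3, log2 fold change 0.58, adjusted p = 0.000825). *Zfyve9*, the endosomal anchor protein SARA that presents TGF-β Smads to their receptor, rose by 0.61 (adjusted p = 0.000821). The other 4 were *Zfyve16*, *Fkbp1a*, *Lemd3* and *Rnf111*, with log2 fold changes of 0.27 to 0.50, named after their values were seen. Only *Smurf1*, *Zfyve9* and *Zfyve16* passed in all 6 fits that left out a sample. *Fkbp1a* passed in 3, and *Lemd3* and *Rnf111* in 1 each, so that 3 rather than 6 passed without Ad-hHIF2 replicate 1, without Ad-GFP replicate 1 and without Ad-GFP replicate 3. Between the HIFs, *Ski* was also higher with HIF2 and *Lemd3* did not pass. In that contrast *Smurf1*, *Zfyve9*, *Rnf111* and *Ski* passed in all 6 fits that left out a sample, and *Zfyve16* and *Fkbp1a* in 1 each. The members of this group act on both sides of the pathway. SMURF1, LEMD3 and FKBP1A are known to restrain it, and RNF111 to amplify it.

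Of 6 other BMP-responsive genes and Id partners tested, 2 fell and 0 rose with HIF2, where 13.6% of all genes fell and 15.9% rose. *Hey1*, a repressor induced by Notch and BMP signals, had mean levels of 9.42 ± 0.572 CPM in Ad-GFP, 6.74 ± 0.306 CPM in Ad-hHIF2 and 11.5 ± 1.55 CPM in Ad-hHIF1 (SD, n = 3), with every Ad-hHIF2 sample below the others. Its log2 fold change with HIF2 was -0.47 (SE 0.108, adjusted p = 0.0114), and -0.77 against Ad-hHIF1 (adjusted p = 0.00101). The call against Ad-GFP was lost without Ad-hHIF2 replicate 1 (adjusted p = 0.0514), with total counts only (-0.22, adjusted p = 0.449) and on the TPM scales (-0.0057 and -0.031). The median of all genes was 0.24 with total counts and 0.12 and 0.30 on the TPM scales. The *Hey1* values in these 3 settings are therefore relative to a shifted centre. *Atoh8*, a helix-loop-helix gene that responds to BMPs, fell by 2.13 on the log2 scale (adjusted p = 0.0173) at levels under 0.77 CPM, a call lost in 5 of 6 fits that left out a sample. It passed the count filter through its Ad-GFP counts (8 to 28, against 4 to 7 in Ad-hHIF2), so its testing depended on the group where it was high. Its place in the count of falls therefore says nothing about direction. *Tcf3*, *Tcf4* and *Tcf12*, the E protein genes whose products ID proteins bind, did not pass, with means of 46.0, 17.3 and 30.1 CPM in Ad-GFP and 45.1, 17.9 and 27.9 CPM in Ad-hHIF2.

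**Figure D4:**
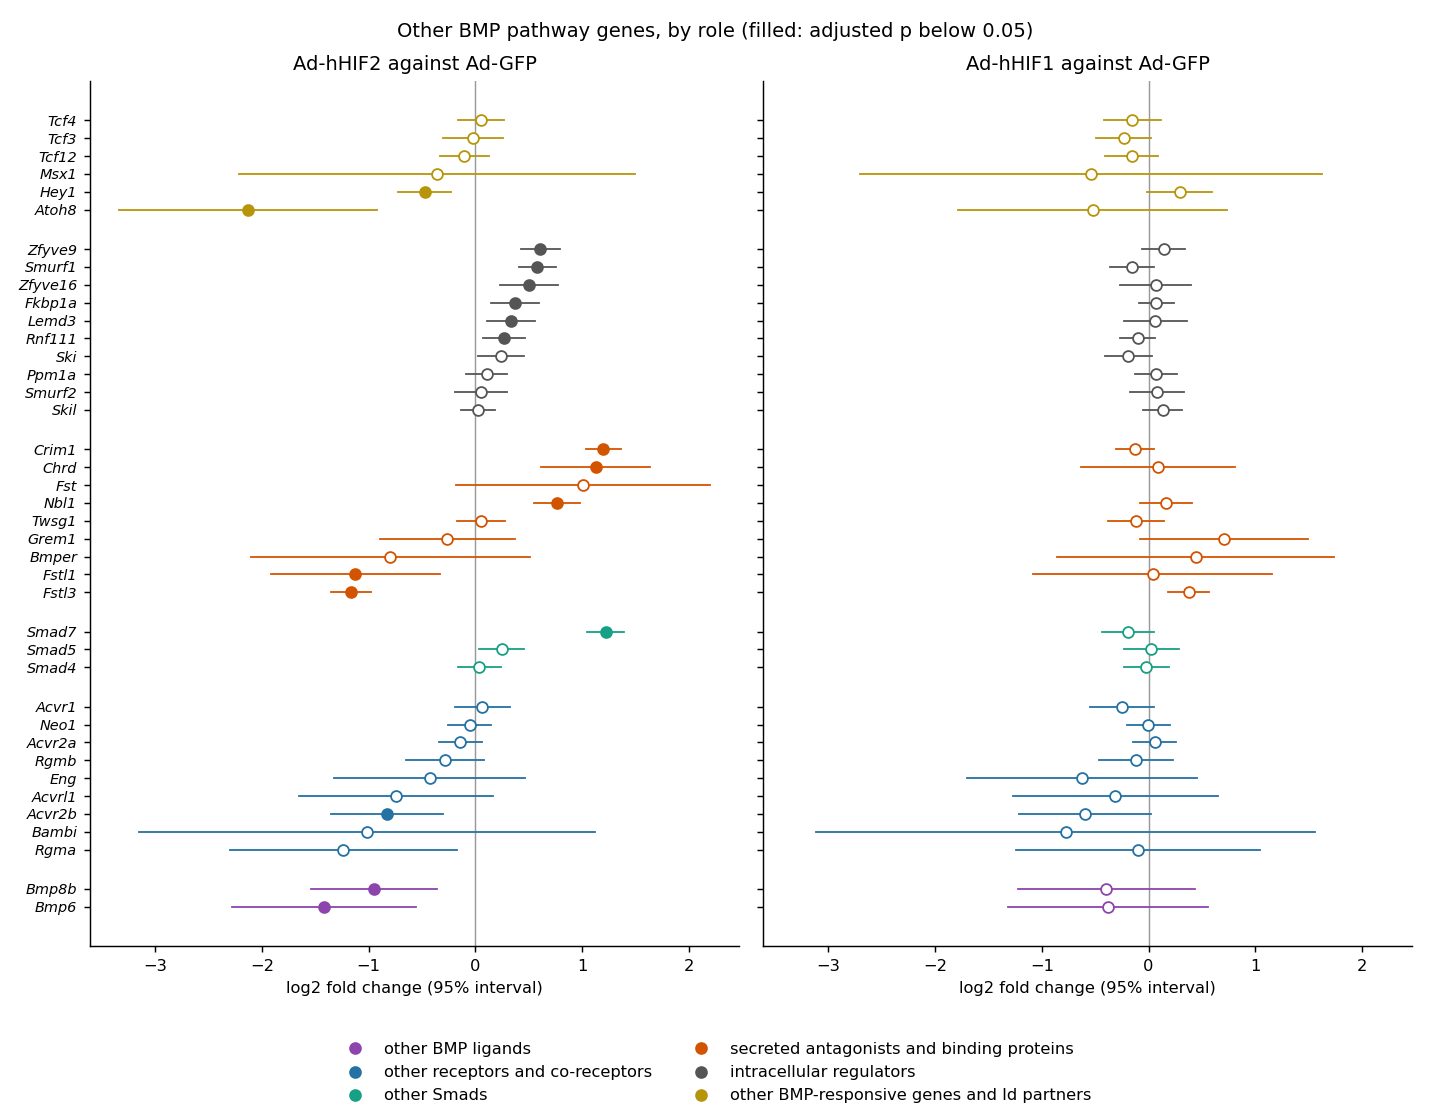
Log2 fold change with its 95% interval (horizontal axis) for the other BMP pathway genes tested, ordered and coloured by role, in Ad-hHIF2 against Ad-GFP and in Ad-hHIF1 against Ad-GFP. Filled points have an adjusted p below 0.05 by edgeR's quasi-likelihood test. Smad7 (1.22) and Fstl3 (-1.16) have narrow intervals, and no point is filled in the right panel.

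Between the HIFs, 39 of the further pathway genes were tested, and 10 were higher and 3 lower with HIF2. In all genes, 13.7% were higher and 12% lower. The 3 lower genes were *Fstl3*, *Hey1* and *Grem1*. *Grem1*, the gene of the antagonist gremlin, was named after its values were seen, with levels of 3.40, 6.13 and 3.09 CPM in Ad-hHIF1 and 2.24, 1.73 and 2.43 CPM in Ad-hHIF2 (log2 difference -0.98, adjusted p = 0.0468). It is chiefly a mesenchymal gene, its highest value was in Ad-hHIF1 replicate 3, and the stromal markers summed to 21.1 CPM in that library against 13.0 and 10.3 CPM in the other Ad-hHIF1 libraries. Their part in the result was not tested. Without that replicate the log2 difference was -0.63 (adjusted p = 0.145), and the call was kept in 1 of the 6 fits that left out a sample.

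Several cell type markers differed in the same contrast as the members. *Muc2*, the goblet cell mucin, made up nearly all of the summed secretory markers, which stood at 1.51 to 2.04 CPM in Ad-hHIF2, 3.55 to 4.38 CPM in Ad-hHIF1 and 4.75 to 7.50 CPM in Ad-GFP. The 5 immune markers summed to 3.09 to 4.43 CPM in Ad-hHIF2, 1.80 to 2.54 CPM in Ad-GFP and 0.563 to 1.36 CPM in Ad-hHIF1, and this sum holds opposite changes. *Csf1r*, a macrophage receptor gene, stood at 2.79 to 4.27 CPM in Ad-hHIF2 and 0.300 to 1.91 CPM in Ad-GFP (log2 fold change 1.46, adjusted p = 0.0475), a call kept in 2 of 6 fits that left out a sample. *Ptprc*, the marker of all leukocytes, stood at 0 to 0.0686 CPM in Ad-hHIF2, 0.492 to 1.15 CPM in Ad-GFP and 0.128 to 0.525 CPM in Ad-hHIF1, and fell with HIF2 (adjusted p = 0.00472). It passed the count filter in that comparison through its Ad-GFP counts (18 to 24, against 0 to 3 in Ad-hHIF2).

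The enterocyte marker *Apoa4*, an apolipoprotein gene, stood at 2.22 to 2.81 CPM in Ad-hHIF2 and at 0 to 0.0511 CPM in the other 6 samples (adjusted p = 5.51e-05 against Ad-GFP), and was the 1 of 4 enterocyte markers tested to pass. *Apoa4* passed the count filter through its Ad-hHIF2 counts (76 to 142.64, against 0 to 1.32 in Ad-GFP). *Fabp2*, a fatty acid binding protein gene of the same list, had a log2 fold change of -1.67 (adjusted p = 0.0837), with every Ad-hHIF2 sample below the controls. *Muc2* fell with HIF2 by 1.77 on the log2 scale (adjusted p = 0.000882). Of the 6 epithelial markers, *Cdh1*, the gene of E-cadherin, rose 1.45-fold (adjusted p = 0.00313), and *Epcam* fell to 0.570 of the control level (adjusted p = 0.0472), a call kept in 1 of 6 fits that left out a sample. The *Epcam* levels were low, 1.42 to 1.90 CPM in Ad-hHIF2 and 2.45 to 3.80 CPM in Ad-GFP.

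Between the HIFs, where 5 members passed, *Apoa4*, *Cdh1* and *Csf1r* were higher with HIF2 and *Muc2* (log2 difference -1.11, adjusted p = 0.00479), *Ptprc*, *Krt19* and *Ascl2* lower. *Krt19*, an epithelial keratin gene, differed by -0.37 on the log2 scale (adjusted p = 0.0177). The 5 endothelial markers summed to 1.06 to 1.76 CPM in Ad-hHIF2, 2.28 to 2.86 CPM in Ad-hHIF1 and 1.65 to 3.03 CPM in Ad-GFP. Of these, *Kdr* and *Pecam1* were tested between the HIFs and did not pass (adjusted p = 0.235 and 0.186). *Ascl2*, a stem cell transcription factor gene, had 0 to 3 counts per sample in Ad-hHIF2 and 15 to 24 in Ad-hHIF1 (adjusted p = 0.0316), a call lost in each of the 6 fits that left out a sample, and that of *Ptprc* was kept in 1. In the fit of all 9 samples *Ascl2* passed the count filter through its Ad-hHIF1 counts, *Apoa4* through its Ad-hHIF2 counts and *Ptprc* through its Ad-GFP counts. Whether these genes were tested thus depended on the group where they were high. The other stem cell markers tested did not pass and had log2 differences of the opposite sign, 2.02 for *Lgr5* (adjusted p = 0.152) and 1.31 for *Axin2* (adjusted p = 0.157), with every Ad-hHIF2 sample above the Ad-hHIF1 and Ad-GFP samples at no more than 1.19 CPM. *Lgr5* passed the filter through its Ad-hHIF2 counts (16.58 to 51.62, against 0 to 8.73 in the other groups), so its testing also depended on the group where it was high. The part of these markers in the changes of *Id2*, *Bmpr2*, *Bmpr1a*, *Id1* and *Id3* was not tested.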

How the data were processed

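RNA from 9 duodenal organoid cultures, 3 per group, was sequenced, and RSEM was run by the authors on the reads left after a quality filter. The versions, aligner, genome build, annotation and strandedness are not given in the sources used here. The deposited tables hold RSEM expected counts, which the authors estimated by sharing reads among transcripts and did not normalize, and of which 85.7% are whole numbers. The tables also hold TPM that the authors obtained with RSEM by scaling counts for effective length and library. The authors compared groups with EBSeq, which was not used here.

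Expected counts were rounded, filtered with filterByExpr, scaled by TMM and tested in R 4.3.3 by the quasi-likelihood method of edgeR 4.0.16, with Benjamini-Hochberg adjustment over all genes tested. A gene passed at an adjusted p below 0.05. Fits of 6 samples set each HIF against Ad-GFP, and a fit of all 9 set the HIFs against each other. CPM use TMM factors over 9 samples. Levels between genes were planned in TPM and were given as CPM per kilobase of RSEM effective length, because the highest 20 genes held 76.2 to 81.0% of TPM. With 3 samples per group, p-values measure the spread between these cultures, and counts as low as 3 (*Bmp7*) limit precision. The code was tested on simulated data with 50 genes changed at each fold size. For Ad-hHIF2 against Ad-GFP, edgeR recovered 20% of 1.5-fold and 68% of 2-fold changes. For Ad-hHIF1 against Ad-GFP it recovered 4% and 28%. Of the calls, 7.45% and 7.27% were false. Far fewer genes were changed there than passed with HIF2, so these shares need not hold for the measured data.

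The members, the pathway list and the markers were chosen with earlier results of these data known, among them the rise of *Smad7*. Named genes were every member, within each pathway role the 2 genes with the smallest adjusted p in Ad-hHIF2 against Ad-GFP and those that passed at 2-fold, the 3 genes most like *Id2*, *Epas1* and *Hif1a*. Exceptions, named after their values were seen, are *Nbl1*, *Grem1*, *Nog*, *Zfyve16*, *Fkbp1a*, *Lemd3*, *Rnf111*, *Ski*, *Tcf3*, *Tcf4*, *Tcf12* and the markers. *Hjv* was listed under its older symbol *Hfe2*. Genes that overlap *Bmp4*, *Bmpr1a* and *Bmpr2* had at most 21 counts in any sample. Alternatives were no filter, a minimum of 10 counts, other scalings, limma 3.58.1 on TPM (log2 scale, pseudocounts of 1 and 0.1) or with voom weights, DESeq2 1.42.0, other samples in the fit, a replicate block, a background covariate and leaving out each sample. Promoter windows came from RefSeq (GRCm38.p6) and gene positions from GENCODE M21. Python 3.11.15 and matplotlib 3.10.9 were used for joins and figures.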

Additional observations from a re-analysis of the deposited data

How the results depend on the processing

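*Id2* passed in both HIF2 comparisons under all 18 alternatives, with log2 fold changes of 1.79 to 2.32 against Ad-GFP and 1.55 to 1.83 against Ad-hHIF1. *Bmpr2* passed in 16 of 18 in each, *Bmpr1a* in 14 and 13, *Id1* in 10 of 18 in each, and *Id3* in 1 of 18 against Ad-GFP and 16 of 18 against Ad-hHIF1. On the TPM scales only *Id2* passed, so the members passing numbered 1 in each HIF2 comparison with either pseudocount. With edgeR and TMM, members passing at 2-fold numbered 1 against Ad-GFP and 2 against Ad-hHIF1, the latter 1 with total counts only and on both TPM scales. Leaving out 1 sample at a time gave 2 to 5 members passing against Ad-GFP. The further pathway genes passing against Ad-GFP numbered 17, 5 on log2(TPM + 1), 4 on log2(TPM + 0.1) and 9 to 16 with a sample left out (9 without Ad-hHIF2 replicate 1, 11 without Ad-GFP replicate 3 and without Ad-hHIF2 replicate 3 or 4). Against Ad-hHIF1 they numbered 13, and 4, 3 and 8 on these TPM scales and with the background covariate. In Ad-hHIF1 against Ad-GFP, DESeq2 called 1. The members with a higher mean numbered 4 in CPM and 8 in TPM against Ad-GFP, and 4 and 7 against Ad-hHIF1. The cause was not tested, but the median log2 fold change of all genes against Ad-GFP was 0.12 and 0.30 on the TPM scales and 0.24 with total counts only, so signs there are relative to a shifted centre.

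Genes passing among all tested numbered 4416 against Ad-GFP with HIF2, and 1010 and 1109 on the TPM scales. Between the HIFs they numbered 4008, 367 and 460 on the TPM scales, 2382 with the covariate and 2594 without Ad-hHIF2 replicate 1. With HIF1 they numbered 0, 384 without a count filter, 144 with DESeq2, 5 with limma-voom and 7 in a fit of 9 samples with or without the covariate.

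Of 514 recomputed member values, 43 changed sign, all from log2 fold changes that had not passed. For Ad-hHIF2 against Ad-GFP, *Bmp4* and *Smad1* were 0.15 and 0.14 with total counts only. *Bmp2*, *Bmp4*, *Smad1* and *Smad6* were 0.065, 0.16, 0.19 and 0.044 on log2(TPM + 1) and 0.14, 0.31, 0.31 and 0.14 on log2(TPM + 0.1). *Smad1* ran from -0.27 to 0.10 with a sample left out. For Ad-hHIF1 against Ad-GFP, *Bmp4* was 0.017 with total counts only, and *Bmp2* and *Bmp4* were 0.0036 and 0.025, then 0.011 and 0.050, on the TPM scales. *Bmpr2* was -0.027 with the covariate. With a sample left out, *Bmpr1a* ran from -0.051 to 0.068, *Bmpr2* from -0.037 to 0.076, *Smad1* from -0.35 to 0.022 and *Id1* from -0.039 to 0.23. Between the HIFs, *Bmp2*, *Bmp4* and *Smad6* were 0.065, 0.14 and 0.16 with total counts only, 0.061, 0.14 and 0.058 on log2(TPM + 1) and 0.13, 0.26 and 0.22 on log2(TPM + 0.1). *Smad6* was 0.0050 without a count filter and -0.27 to 0.13 with a sample left out, and *Smad1* was -0.066 with the covariate and -0.040 to 0.18 with a sample left out.

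Deviations of same-numbered samples from their group means correlated at 0.0703 to 0.134 between Ad-hHIF2 and Ad-GFP, each above every differently numbered pair (-0.132 to 0.0657), at -0.0909 to 0.0969 between Ad-hHIF1 and Ad-GFP and at -0.194 to -0.067 between the HIFs. The labels name no shared source, so the numbers were not taken as pairs in the main fits. Whether same-numbered samples share a source cannot be told from the labels. With the replicate number as a block, 4, 0 and 4 members passed in the 3 comparisons, against 4, 0 and 5 without it, and *Id1* was lost between the HIFs (-0.58, adjusted p = 0.0549). Under the block *Bmpr1a* was -0.00064 with HIF1 and *Smad6* 0.030 between the HIFs.

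Depth limits *Bmp7* (3 to 17.02 counts), *Id3* and the low pathway genes.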
